A study of Mus musculus with 10 samples.

Results

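The genes described here encode the machinery that carries newly made proteins into and out of the endoplasmic reticulum (ER). They were chosen by name alone: every gene whose symbol in the array annotation begins with Sec, Srp or Ssr and a digit, with Srpr, Spcs, Pdia, Derl, Tram, Tmed, Kdelr or Lman, or with Cop and a letter. The Cops genes, which encode the COP9 signalosome, were dropped. The rule took 73 of the 16593 genes on the array, on 119 of its 25697 probes, and used no measured value. Of these, 62 genes were bright enough to be tested, among 10087 tested genes in all. The same name rule also took 8 genes that are not parts of these complexes: Coprs, a partner of the arginine methyltransferase PRMT5, the Sec14-like lipid-binding genes and the Sec22 SNARE genes.

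Total RNA came from KH2 cells, a mouse embryonic stem (ES) cell line in which doxycycline switches on an inserted transgene, and the insert in these cells was V5-tagged Sox17. Sox17 encodes a transcription factor that specifies endoderm. The RNA was read on 10 Illumina bead arrays, 5 labelled Sox17(-), the control, and 5 labelled Sox17(+), from cells given doxycycline for 48 h, and these are called uninduced and induced here. Cells of both labels carry the transgene, and the labels name no clone, passage or culture, so the spread behind each p value may be technical. Within each label the replicate numbers of the sample descriptions run from 1 to 3 and restart at title number 4. Titles 1 to 3 are called run 1 and titles 4 and 5 run 2, which says nothing of when or how the arrays were made.

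The values are background-subtracted normalized intensities. The Sox17 signal went against the labels: its tested probe gave intensities of 11.99 to 16.6 on induced 2 to 5, 30.5 to 32.6 on uninduced 1 to 3, 60.6 to 65.3 on uninduced 4 and 5 and 67.3 on induced 1. A second, dimmer probe was not tested. It gave -2.30 to 4.74 on induced 2 to 5, 6.11 to 19.2 on uninduced 1 to 3, 32.2 and 35.4 on uninduced 4 and 5 and 42.9 on induced 1. Whether either probe reads the V5-tagged insert was not tested. Every direction drawn from a label below is therefore a direction between arrays so labelled. In a principal component analysis of the tested probes, induced 2 to 5 lay apart from the other 6 arrays on the leading axis (56.7% of the variance). On the next axis (20.4%), uninduced 4 and 5 and induced 1, 4 and 5 lay on one side and the other 5 arrays opposite them, and the array nearest to induced 1 was uninduced 4. Runs were therefore compared inside each label, with induced 1 kept as a group of its own in the fit. Of 10 ES cell markers 10 were tested, with Pou5f1 at 6476 to 9471 on the 10 arrays. Between runs in the mean of both labels Pou5f1 rose and Tdgf1 fell, beside 16.7% of all tested genes called. Both calls were lost with the description number as a replicate block (limma adjusted p = 0.0985 and 0.0544). That of Pou5f1 was lost too with induced 1 counted in run 1 (limma adjusted p = 0.0617) and without uninduced 4 or induced 3 or 5 (0.0523 to 0.0637). That of Tdgf1 was lost too without the filter on dim probes (limma adjusted p = 0.0885) and without induced 2 (0.0572). Between the labels 1 of the 10 was higher and 2 were lower on induced arrays, beside 19.5% of all tested genes called.

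Proteins for secretion are caught as they leave the ribosome by the signal recognition particle, which docks on its receptor at the ER. They pass through the Sec61 channel, lose their signal peptide to the signal peptidase, and are folded and disulphide-bonded by protein disulphide isomerases, while Derlins help return misfolded chains to the cytosol. COPII vesicles carry cargo to the Golgi and COPI vesicles bring back ER residents through KDEL receptors, with p24 proteins and lectins as cargo adaptors. Xbp1 and Atf6 raise many of these genes in secretory cells, and primitive and parietal endoderm, which Sox17 helps to specify in the embryo, secretes large amounts of basement membrane.

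Between the runs 1 of the secretory genes passed the test, a fall, while the mRNAs of both collagen IV chains and of a laminin chain rose. In the mean of both labels limma called 1 of the 62 tested genes, a fall of Derl3, beside 16.7% of all tested genes (higher 7.56%, lower 9.12%). Their median change was -0.03 on the scale of log2(intensity + 16), which is used for every difference here, against -0.01 for all tested genes. The 95% confidence interval of the change lay inside 1.5-fold in either direction for 61 of 62 secretory genes (98.4%), the exception being the dim gene Tmed6, and for 87.7% of all tested genes; the 1.5-fold limit was set after the data were seen. Of the 28 secretory genes with a mean intensity over 1000, 0 were called by limma, beside 10.8% of all genes that bright, and of the 26 between 100 and 1000 again 0, beside 18.8%. At an unadjusted p under 0.05 there were 7 of 62, beside 30.2% of all tested genes.

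Col4a1, a chain of basement membrane collagen IV, read 502, 480.2 and 467 on uninduced 1 to 3 and 3934 and 3456 on uninduced 4 and 5. It read 388 and 448 on induced 2 and 3, 1825 and 2249 on induced 4 and 5, and 3577 on induced 1. With induced 1 left out, all run 2 arrays lay above all run 1 arrays of their label. Induced 1 lay with uninduced 4 and 5, above induced 4 and 5. The mean change was 2.57 ± 0.09 (limma adjusted p = 4.48e-07, n = 2 against 3 and 2 against 2 arrays). Col4a2, the partner chain, rose by 2.38 ± 0.06, Lama1, a laminin chain, by 1.50 ± 0.08 and Hspg2, which encodes perlecan, by 0.66 ± 0.08. Of 14 tested genes of a list of basement membrane cargo and collagen-modifying enzymes, 5 rose and 3 fell. The falls were those of P4ha1 (-0.63), P4ha2 (-0.62) and Plod2 (-0.63), enzymes that hydroxylate collagen. P4ha1, P4ha2 and Plod2, and Lamc1 among the rises (0.43), were named after their values were seen. With induced 1 counted in run 1 of its label, 5.56% of all tested genes were called in place of 16.7%, and neither the Col4a1 change of 2.06 nor the Hspg2 change of 0.49 passed (limma adjusted p = 0.0586 and 0.209).

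The summed intensity of the 62 secretory genes was 1.04 times as high in run 2 as in run 1 on uninduced arrays and 0.921 times as high on induced 2 to 5. For the cargo list the same ratios were 1.86 and 1.29. On induced 1 the secretory sum stood at 1.03 times, and the cargo sum at 1.91 times, the mean of uninduced 1 to 3. The secretory sum thus moved by less than the cargo sum between runs in both labels.

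**Figure D1:**
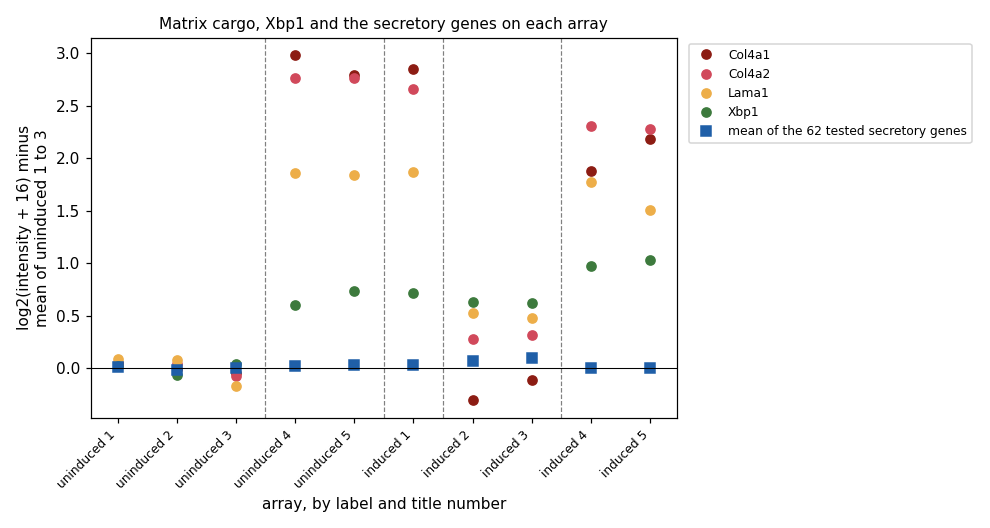
Difference in log2(intensity + 16) from the mean of uninduced 1 to 3 on each of the 10 arrays, for Col4a1, Col4a2, Lama1 and Xbp1 (circles) and for the mean of the 62 tested secretory genes (squares); dashed lines separate the title groups. The 3 cargo genes stand high on uninduced 4 and 5 and on induced 1, 4 and 5, while the squares stay near 0 on all 10 arrays.

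Markers of other cells moved with the runs too, and their part in these values was not tested. In the mean of both labels 7.56% of all tested genes rose and 9.12% fell. Of 10 tested primitive and parietal endoderm markers, 4 rose and 2 fell in that mean, among them Gata6 (1.71 ± 0.10), Pdgfra (1.47 ± 0.09) and Sox18 (-1.30 ± 0.13). With induced 1 counted in run 1 these 3 calls were lost (1.33, 0.95 and -1.04, limma adjusted p = 0.104, 0.399 and 0.0700). The summed intensity of all 15 endoderm markers on the array, tested or not, was 725 to 793 on uninduced 1 to 3, 1377 to 1545 on uninduced 4 and 5, 1443 on induced 1, 553 to 560.1 on induced 2 and 3 and 577 to 601 on induced 4 and 5. Afp, Ttr and Thbd lay under the background limit of 10.6 on all 10 arrays. The summed fibroblast markers fell from 324 to 349 on uninduced 1 to 3 to 201 to 203 on uninduced 4 and 5, stood at 202 on induced 1, and were 172 to 174 on induced 2 and 3 and 118 to 125 on induced 4 and 5. Of 13 of these markers 7 lay under the limit on every array (Col3a1, Col6a1, Col6a2, Dcn, Lum, Postn and Fap), and of the 4 tested the only call between runs in the mean of both labels was a fall of Thy1 (-0.74 ± 0.08). In RNA of whole cultures, fewer cells of a type and less RNA per cell cannot be told apart.

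Xbp1, the transcription factor that drives ER expansion once its mRNA is spliced, rose in both labels without a like rise of the secretory genes. It read 1535, 1447 and 1562 on uninduced 1 to 3, 2308 and 2534 on uninduced 4 and 5, 2499.96 on induced 1, 2362 and 2338 on induced 2 and 3 and 2984 and 3118 on induced 4 and 5. The runs did not overlap inside either label. The change was 0.67 ± 0.08 among uninduced arrays and 0.37 ± 0.09 among induced 2 to 5 (limma adjusted p = 0.00151 and 0.039). Spliced and unspliced Xbp1 were not told apart here. Among 18 tested regulators of the unfolded protein response, 2 rose and 2 fell in the mean of both labels. Of all tested genes 7.56% rose and 9.12% fell in that mean. Creb3l2, a membrane-bound factor that in mouse cartilage raises Sec23a, rose by 0.49 ± 0.08, and Ddit3, the stress factor CHOP (-0.30 ± 0.06), and the NF-Y subunit gene Nfyb (-0.21 ± 0.06) fell. All 3 calls were lost with induced 1 counted in run 1 (limma adjusted p = 0.269, 0.205 and 0.103), that of Ddit3 also without induced 3 (0.0579) and with the description number as a replicate block (0.0964), and that of Nfyb also without any one array other than induced 1 (0.0580 to 0.142), with array weights (0.0567) and with the block (0.225).

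The promoters of 59 secretory genes were found in RefSeq (GRCm38.p6), each from 250 bases before the annotated start to 50 after it, and were searched on both strands for the sites that Atf6 and Xbp1 are known to use. The ER stress element, CCAAT and CCACG with 9 bases of any kind between them, was found for 2 of the 59 (3.39%), Pdia6 and Derl3, and for 0.137% of the 27025 genes with a promoter in the table. The Xbp1 and Atf6 site TGACGTGG was found for 6 (10.2%), Copb1, Copb2, Kdelr3, Sec16b, Sec23a and Sec24d, and for 0.714% of all genes. A shorter form, ATTGG and CCACG with 1 base between them, was found for 0 of 59 and 0.0444% of all genes, and the cyclic AMP element TGACGTCA for 1, Cope (1.69%), and 2.03% of all genes. The first and the second site share the letters CCACG, and no secretory promoter held both. The 120 bases that carry the site are shown for 5 of these genes. Capitals mark the site. For Derl3, Kdelr3 and Copb1 it lies on the opposite strand and is printed as it reads on the gene's own strand. Pdia6 lies at chr12:17266410-17266529 on the plus strand, Derl3 at chr10:75893161-75893280 on the plus strand, Kdelr3 at chr15:79516286-79516405 on the plus strand, Sec24d at chr3:123267376-123267495 on the plus strand and Copb1 at chr7:114254681-114254800 on the minus strand.
Pdia6: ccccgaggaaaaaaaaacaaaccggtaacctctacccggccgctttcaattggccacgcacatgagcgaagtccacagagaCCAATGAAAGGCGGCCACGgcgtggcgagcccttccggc
Derl3: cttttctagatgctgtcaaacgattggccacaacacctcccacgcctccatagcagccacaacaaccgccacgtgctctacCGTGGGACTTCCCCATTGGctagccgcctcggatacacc
Kdelr3: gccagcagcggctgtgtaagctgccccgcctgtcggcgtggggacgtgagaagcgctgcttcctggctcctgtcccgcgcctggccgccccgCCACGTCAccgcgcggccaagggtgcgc
Sec24d: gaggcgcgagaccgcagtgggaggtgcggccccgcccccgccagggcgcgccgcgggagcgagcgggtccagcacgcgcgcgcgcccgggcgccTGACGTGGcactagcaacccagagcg
Copb1: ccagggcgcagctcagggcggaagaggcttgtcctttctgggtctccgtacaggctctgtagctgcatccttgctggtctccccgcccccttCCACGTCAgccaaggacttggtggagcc

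Of the 7 tested genes with either site, 0 rose between the runs in the mean of both labels and Derl3 fell. Of all tested genes 7.56% were higher and 9.12% lower, and 7 genes are too few to set against those shares. Pdia6, an ER oxidoreductase, read 171, 152 and 215 on uninduced 1 to 3 and 224 and 205 on uninduced 4 and 5, and 214 and 243 then 197 and 215 on induced 2 and 3 and induced 4 and 5, with 251 on induced 1. Its mean change was 0.06 ± 0.10 (95% interval -0.17 to 0.28), with arrays of the runs overlapping in both labels. Kdelr3, one of the receptors that retrieve ER residents, changed by -0.05 ± 0.06. The change was -0.03 ± 0.10 for Sec24d, a cargo-binding COPII subunit, and -0.03 ± 0.15 for Copb1, the beta subunit of the COPI coat. On uninduced arrays Pdia6, Kdelr3, Sec24d and Copb1 changed by 0.25, 0.12, 0.10 and 0.02. On induced 2 to 5 they changed by -0.14, -0.23, -0.17 and -0.08. Copb1 was dim, at 9.94 to 33.8 over the 10 arrays, so its interval was wide (-0.36 to 0.30). A match of letters is a description of these windows and says nothing of binding.

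Targeting to the ER was measured by 8 genes, all tested. Between runs on uninduced arrays limma called 1 of the 62 secretory genes, a fall, beside 5.03% of all tested genes lower and 5.01% higher, and it was Srp54a, the subunit that binds the signal peptide. Srp54a read 417, 378 and 417 on uninduced 1 to 3 and 279 and 304 on uninduced 4 and 5, with 312 on induced 1, a fall of -0.45 ± 0.10 (limma adjusted p = 0.0206). On induced 2 to 5 it read 381 and 328 then 361 and 349.9 and the change was 0.01 ± 0.10. The runs were apart in the first comparison and overlapped in the second, and the difference of the 2 changes did not pass (limma adjusted p = 0.274). This call was lost without uninduced 1, 3, 4 or 5, each of which left 0 secretory calls in that comparison and 4.9% to 6.49% of all tested genes called. Srp9, the most intense targeting gene and part of the Alu domain of the particle, read 1531 to 1882 over the 10 arrays and changed by -0.08 ± 0.06. Induced 1 was left out of the next counts. Srpr, the receptor's alpha subunit, Sec16a and Sec22c were the 3 secretory genes whose run 2 arrays all lay above run 1 in both labels. Sec23ip was the 1 gene for which they all lay below. The same held for 10.3% and 11.8% of all tested genes. None of these 4 was called.

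Among translocon genes, Sec63, which couples the channel to the chaperone BiP, carried 1 of the 2 calls between runs on induced 2 to 5. It read 935 and 1001 on induced 2 and 3 and 739.9 and 667 on induced 4 and 5, a fall of -0.45 ± 0.11 (limma adjusted p = 0.0416). On uninduced arrays it read 926, 914 and 1005 then 1040.4 and 877, with overlapping runs and a change of 0.01 ± 0.10. In this comparison 8.38% of all tested genes were called. A second Sec63 probe changed by -0.33 on induced 2 to 5 and was not called. Sec61a1, the channel-forming subunit, read 941, 1024 and 973 then 1187 and 1162 on uninduced arrays and 1416 and 1583 then 1282 and 1291 on induced ones. With induced 1 left out (1013.5), its runs did not overlap in either label. Its changes were 0.26 ± 0.08 and -0.22 ± 0.09, so the mean was 0.02. Tram1, a membrane protein beside the channel, read 2412 to 3323 and changed by -0.10 ± 0.07.

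The other call on induced 2 to 5 was Derl3, a Derlin of secretory tissues, and this gene was close to background. It read 17.1, 21.1 and 16.4 on uninduced 1 to 3, 16.5 and 13.6 on uninduced 4 and 5, 12.9 on induced 1, 14.6 and 15.4 on induced 2 and 3 and 8.37 and 5.71 on induced 4 and 5. Both of the last arrays lay under the limit of 10.6. With the dim arrays raised to that limit the fall there came to 1.41-fold. Induced 2 and 3 lay close to the limit themselves, so this is no firm bound. The fitted change was -0.43 ± 0.11 on induced 2 to 5 and -0.28 ± 0.07 in the mean of both labels (limma adjusted p = 0.0426 and 0.0284). The call in the mean was lost without uninduced 2 or 5 or induced 2, 3 or 5 (-0.33 to -0.24 over all arrays left out in turn) and with an offset of 50 in place of 16 (-0.13). Calls on induced 2 to 5 fell from 2 to 0 without uninduced 1 or 3 or induced 2, 3 or 5, with 4.33% to 7.31% of all tested genes called, and to 1 without uninduced 2, 4 or 5 or induced 4.

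The translocon-associated protein complex was read by Ssr2, Ssr3 and Ssr4, and signal peptidase by Sec11a and Sec11c, its catalytic subunits, and Spcs1, Spcs2 and Spcs3. Between runs, in each label and in the mean of both, 0 of these 8 were called by limma. The share of all tested genes called was 16.7% in the mean and 8.38% on induced 2 to 5. On uninduced arrays 5.01% were higher and 5.03% lower, and 8 genes are too few to set against those shares. Ssr2 read 4618 to 6785 over the 10 arrays and changed by 0.03 ± 0.08, and Spcs1 read 3838 to 4589 and changed by -0.07 ± 0.08. Spcs3, named after its values were seen, read 1458 and 1450.3 then 1216 and 1027 on induced 2 to 5, a change of -0.37 ± 0.10 that missed the threshold (limma adjusted p = 0.0566).

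Coat genes gave 0 calls between runs by limma on the brightest probe of each, beside 16.7% of all tested genes in the mean of both labels. Among 8 tested COPII genes the mean changes ran from -0.20 to 0.20, and among 7 COPI genes from -0.12 to 0.06. The 2 other tested Copz2 probes, with means of 45.2 and 37.1 over the 10 arrays against 46.5 for the brightest, fell by 0.42 and 0.53 on the log2 scale (limma adjusted p = 0.0266 and 0.000926), so the result for Copz2 depends on the probe. Sec13, which forms the COPII cage, read 4835 to 5760.2 over the 10 arrays, with a change of -0.03 ± 0.06 (95% interval -0.16 to 0.10). Copb2, the beta-prime COPI subunit that reads retrieval signals, read 3592 to 4086, with a change of -0.07 ± 0.06 (95% interval -0.21 to 0.07).

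Cargo adaptors and receptors gave 0 calls between runs, by limma on the brightest probe of each, in either label or in the mean. Of all tested genes 16.7% were called in the mean and 8.38% on induced 2 to 5. On uninduced arrays 5.01% were higher and 5.03% lower. A probe other than the brightest was called in the mean for the p24 genes Tmed3 and Tmed4. The p24 gene Tmed9 read 5241 to 6408 and changed by -0.09 ± 0.06. Lman1, the lectin ERGIC-53, which carries glycoproteins out of the ER, changed by -0.05 ± 0.08, and the KDEL receptor gene Kdelr2 by -0.06 ± 0.06. Pdia3, an isomerase that works with the lectin chaperones on glycoproteins, read 4684, 4515 and 5109 on uninduced 1 to 3 and 6192 and 5142 on uninduced 4 and 5, with 6026 on induced 1. On induced 2 and 3 it read 5551 and 5262 and on induced 4 and 5 4395 and 5312. The runs were apart on uninduced arrays and overlapped on induced ones, and the mean change was 0.04 ± 0.09. Coprs, taken by name only, changed by 0.11 ± 0.06.

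**Figure D2:**
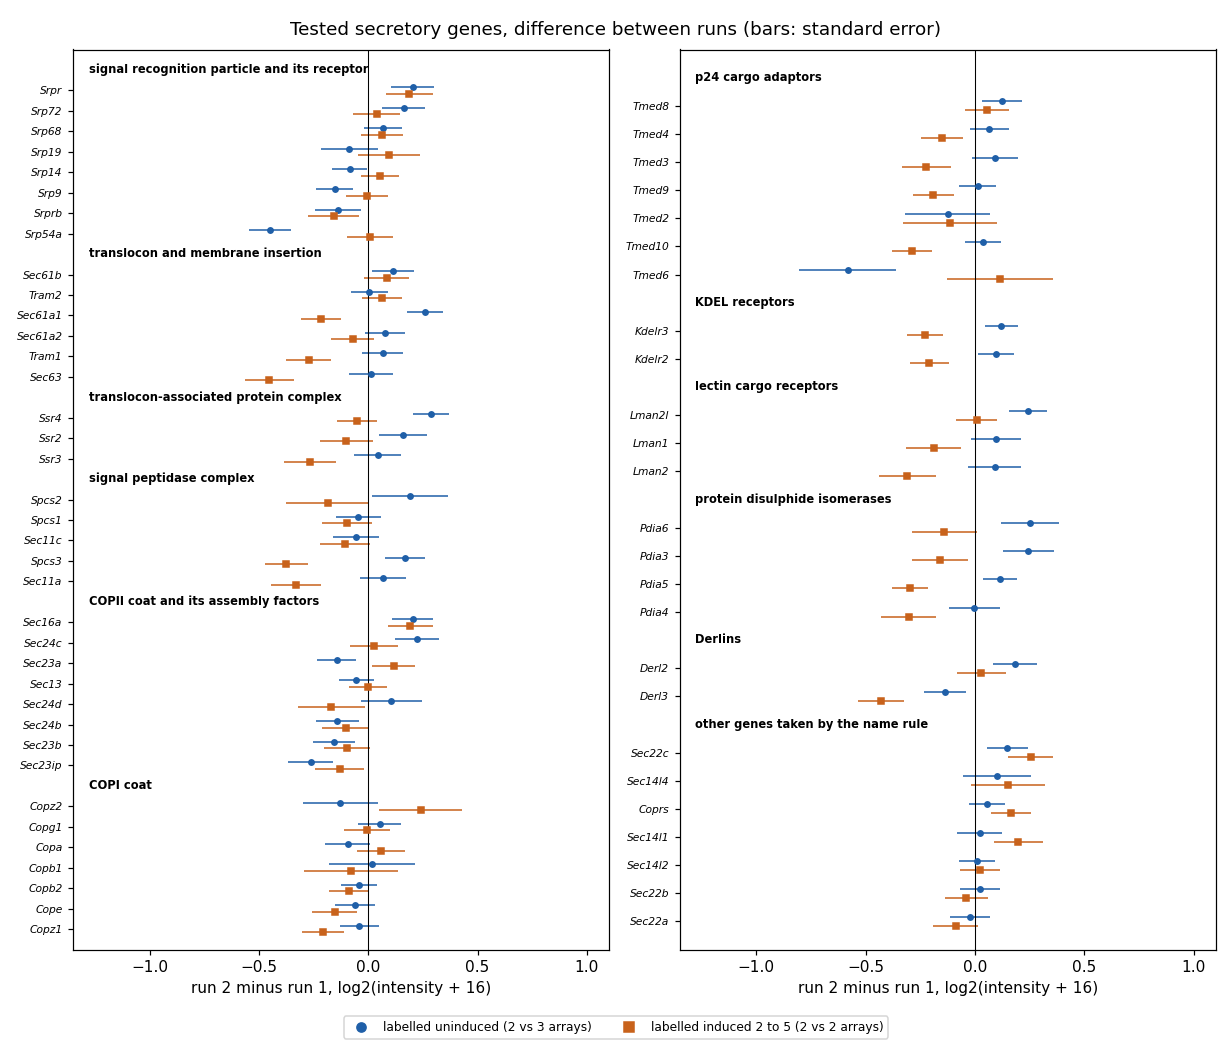
Difference between run 2 and run 1 in log2(intensity + 16) for each of the 62 tested secretory genes, grouped by role, on arrays labelled uninduced (circles) and induced 2 to 5 (squares); bars are the standard error of the fit. Most points lie within 0.3 of 0, and in several roles the circles lie right of 0 and the squares left of it.

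The signs of the changes are given here as counts, with no test. The roles listed first were chosen because most of their genes were above 0 on uninduced arrays and below 0 on induced 2 to 5. Their counts therefore follow from that choice. On uninduced arrays the change was above 0 for 6 of 6 tested translocon genes, 3 of 3 of the translocon-associated complex, 2 of 2 KDEL receptors, 3 of 3 lectins, 3 of 4 isomerases, 5 of 7 p24 adaptors and 3 of 5 signal peptidase genes. On induced 2 to 5 it was below 0 for 4 of 6, 3 of 3, 2 of 2, 2 of 3, 4 of 4, 5 of 7 and 5 of 5 of them. Targeting genes went the other way, with 3 of 8 above 0 on uninduced arrays and 6 of 8 on induced 2 to 5, and COPII and COPI genes had 3 of 8 and 2 of 7 above 0 in both. These comparisons share no array, but genes read on the same arrays are not independent. Over all 62 genes 40 were above 0 in the first and 40 below 0 in the second. The medians were 0.05 and -0.09, beside -0.007 and -0.008 for all tested genes.

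The difference of the run changes was called by limma for 0 secretory genes, beside 0.0198% of all tested genes, and 12 of 62 had an unadjusted p under 0.05, beside 11.9% of all tested genes. In 11 of the 12 the change was lower on induced 2 to 5, and the other was Srp54a. Spcs3 (-0.54 ± 0.14), Sec61a1 (-0.48 ± 0.12) and the isomerase gene Pdia5 (-0.41 ± 0.11) had the smallest p values (limma adjusted p = 0.233, 0.24 and 0.24) and were named after their values were seen. Outside the secretory genes, Col4a1 rose by 2.89 on uninduced arrays and 2.24 on induced 2 to 5, Col4a2 by 2.77 and 2.00, and Xbp1 by 0.67 and 0.37, with none of the 3 differences called (limma adjusted p = 0.24, 0.0811 and 0.4).

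**Figure D3:**
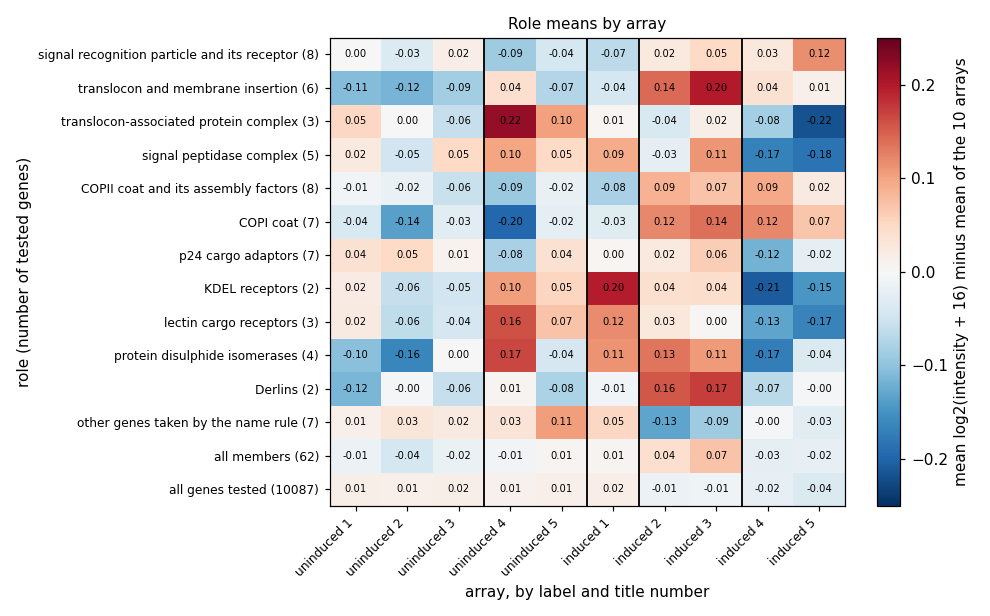
Mean log2(intensity + 16) of the tested genes of each role on each array, minus the mean of that role over the 10 arrays; colours and printed numbers show the same value, and black lines separate the title groups. KDEL receptors, lectins, signal peptidase and the translocon-associated complex are lowest on induced 4 and 5. The means of COPI and of COPII genes are higher on induced 2 to 5 than on the other 6 arrays. The COPI mean leans on the brightest Copz2 probe, which was higher on arrays labelled induced (0.73), while other tested Copz2 probes stood at -0.67 and -0.42. A COPI mean without Copz2 was not computed.

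Of the 62 secretory genes, 8 differed between the labels, with 6 of them higher and 2 lower on induced arrays, beside 19.5% of all tested genes (8.50% higher, 11.0% lower). Higher were Copz2, a COPI zeta subunit, Tram2, a relative of Tram1 with a role in collagen synthesis, Derl2, Kdelr2, Sec61b, the small channel subunit, and Srp14, the partner of Srp9. Lower were Tmed10, a p24 adaptor, and Ssr3, the gamma subunit of the translocon-associated complex. Sec61b and Srp14 were named after their values were seen.

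Tram2 read 35.7, 30.8, 31.4, 33.2 and 32.3 on uninduced 1 to 5 and 28.9, 62.1, 62.5, 62.4 and 69.3 on induced 1 to 5, a difference of 0.55 ± 0.15 (limma adjusted p = 0.0344). Copz2 read 32.3, 23.1, 39.9, 20.2 and 35.7 on uninduced arrays and 25.7, 65.4, 63.9, 76.9 and 81.7 on induced ones (0.73 ± 0.22, limma adjusted p = 0.0404). In both genes induced 1 lay within or below the range of the uninduced arrays and induced 2 to 5 lay above all of them. A second Copz2 probe was lower on the arrays labelled induced (-0.67, limma adjusted p = 0.0308) and another stood at -0.42, so the direction of Copz2 depends on the probe. A second Tram2 probe stood at -0.26 and was not called (limma adjusted p = 0.103).

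Derl2, which helps extract misfolded proteins, read 176, 184, 196, 215 and 209 on uninduced arrays and 239, 286, 285, 262 and 325 on induced ones (0.47 ± 0.10, limma adjusted p = 0.0207). The labels did not overlap, induced 1 included, and a second Derl2 probe was higher too (0.70, limma adjusted p = 0.0123). Sec61b too had a second probe called in the same direction (0.43, limma adjusted p = 0.0288).

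Tmed10 read 1817, 1868, 1903, 2027 and 1802 on uninduced arrays and 1847, 1332, 1361, 1089.96 and 1111 on induced ones, a fall of -0.50 ± 0.13 (limma adjusted p = 0.0288). Ssr3 read 4511, 4366, 4027, 4428 and 4419 on uninduced arrays and 4199.7, 3631, 3354, 3242 and 2596 on induced ones, a fall of -0.37 ± 0.12 (limma adjusted p = 0.0458). For both, induced 1 lay within the uninduced range and induced 2 to 5 below it. Kdelr2 (0.28 ± 0.08), Sec61b (0.30 ± 0.10) and Srp14 (0.28 ± 0.08) differed less, with limma adjusted p of 0.0411, 0.0496 and 0.0374. Kdelr2 and Kdelr3 went apart: Kdelr3 read 1081 to 1221 on uninduced arrays, 1340.2 on induced 1 and 910.1, 885, 755 and 773 on induced 2 to 5 (-0.34 ± 0.14, limma adjusted p = 0.0985, not called).

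**Figure D4:**
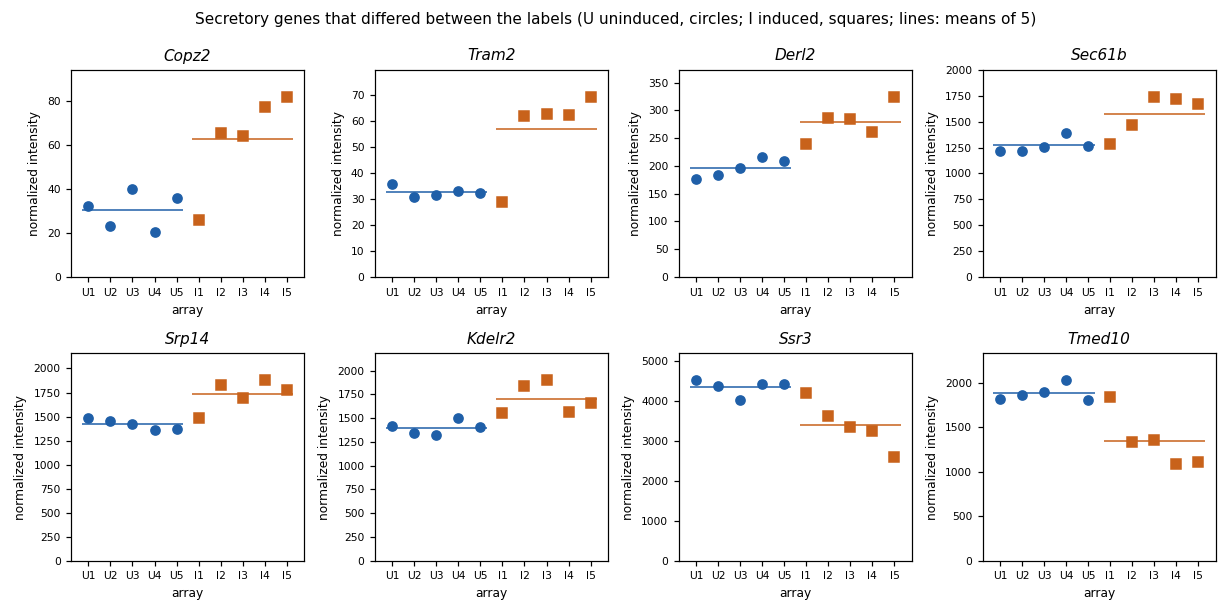
Normalized intensity on each array for the 8 secretory genes that differed between the labels (U, uninduced, circles; I, induced, squares), with axes from 0 and lines at the mean of 5 arrays. In Tram2, Copz2, Tmed10 and Ssr3 induced 1 lies with the circles or below them while induced 2 to 5 lie apart, and in Derl2, Kdelr2 and Srp14 every square lies above every circle.

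Calls between the labels depended on single arrays, for the secretory genes and for all genes. Leaving out induced 1 gave 18 calls among the secretory genes, with 44.9% of all tested genes called. Leaving out uninduced 1, 2 or 3 or induced 2, 4 or 5 gave 0, with 0.0793% to 0.347% of all genes called. Leaving out uninduced 4 or induced 3 gave 1, and uninduced 5 gave 2, with 4.38% to 13% of all genes called. With the division between induced 2 to 5 and the other 6 arrays as a block, which leaves induced 1 as the only induced array of its set, 0 were called, and 0% of all genes. Copz2 stood at -0.13 and Tram2 at -0.12 in that fit, Derl2 at 0.27, Kdelr2 at 0.15, Ssr3 at -0.05 and Tmed10 at -0.03, and the label and that division nearly coincide.

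Genes of the same pathway that the name rule does not take were read from lists of partners. Beside each of these lists, 7.56% of all tested genes rose between runs in the mean of both labels and 9.12% fell. Of 43 tested GTPases, tethers, SNAREs and other partners of ER to Golgi traffic, 1 rose and 0 fell between runs in the mean of both labels. It was Use1, a SNARE of retrograde traffic (0.30 ± 0.06, limma adjusted p = 0.0102), a call that was lost with the description number as a replicate block (0.0804) and with induced 1 counted in run 1 (0.0712). Between the labels 6 of the 43 were higher and 1 lower, beside 8.50% and 11.0% of all tested genes. Mia3, which loads bulky cargo such as collagen into COPII carriers and was named after its values were seen, stood at -1.07 ± 0.21 (limma adjusted p = 0.0206) between the labels and at 0.18 ± 0.15 between runs.

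Of 30 tested ER chaperones and oxidative folding genes, 1 rose and 2 fell between runs in the mean of both labels. Txndc12, a thioredoxin-like protein of the ER, read 1067, 1081 and 1095 then 1451 and 1661 on uninduced arrays and 1009 and 891 then 1232 and 1518 on induced 2 to 5 (0.52 ± 0.08). Its runs were apart in both labels, with induced 1 left out. Tmx4, a membrane thioredoxin (-0.35 ± 0.07), and Creld2, an ER stress-induced protein (-0.28 ± 0.08), fell. With induced 1 counted in run 1 the calls of Txndc12 (0.40, limma adjusted p = 0.189) and Creld2 (0.254) were lost, and with the replicate block those of Tmx4 (0.0629) and Creld2 (0.189). Creld2 was lost too without the filter on dim probes (0.107) and without uninduced 1, 2, 3 or 5 or induced 2, 3 or 4. The summed intensity of the chaperone list in run 2 was 1.13 times that in run 1 on uninduced arrays and 0.897 times on induced 2 to 5.

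Of 22 tested N-glycosylation genes, Stt3a, a catalytic subunit of the oligosaccharyltransferase, rose (0.31 ± 0.07) and Alg9, a mannosyltransferase, fell (-0.20 ± 0.06). Both calls were lost with the replicate block (limma adjusted p = 0.103 and 0.189) and with induced 1 counted in run 1 (0.482 and 0.36), that of Stt3a also without uninduced 4 or induced 2, 3 or 4, and that of Alg9 also with array weights (0.0533) and without any one array other than induced 1 (0.0674 to 0.142). Of 16 tested genes of ER-associated degradation, 0 rose and Herpud1, a scaffold of the retrotranslocation complex, fell (-0.28 ± 0.07, limma adjusted p = 0.0207). Herpud1 read 1431 to 1647 on uninduced arrays, 1570.4 on induced 1, 1291 and 1287 on induced 2 and 3 and 971 and 869 on induced 4 and 5, so the fall lay mainly inside the induced label (-0.48 against -0.08, difference not called, limma adjusted p = 0.308). The Herpud1 call was lost without uninduced 1 or 4 or induced 2, 3 or 5, with the replicate block (limma adjusted p = 0.0589) and with induced 1 counted in run 1 (0.0631). Over these lists of chaperones and of N-glycosylation genes the median difference between the run changes was -0.34 and -0.24, beside -0.08 for the 62 secretory genes and -0.60 for the cargo list.

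The 11 secretory genes that were too dim to be tested were Derl1, Kdelr1, Lman1l, Sec14l3, Sec16b, Sec24a, Sec62, Ssr1, Tmed11, Tmed5 and Tram1l1, each above the limit on at most 2 of the 10 arrays. Several probes were tested for 22 of the 62 genes. Between runs in the mean of both labels a probe other than the brightest was called for Copz2, Srprb, Tmed3, Tmed4 and Sec22c. Of 94 tested secretory probes 1 rose and 6 fell, beside 1106 and 1212 of all 14985 tested probes. Srprb, the beta subunit of the receptor, changed by -0.15 ± 0.08 on its brightest probe and by -0.44 ± 0.09 on the other (limma adjusted p = 0.00987). Between the labels other probes alone were called for Cope, Srp9, Srprb and Tram1. Of the 94 probes 11 were higher and 4 lower, beside 1358 and 1561 of the 14985.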

How the data were processed

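For each probe the authors deposited a linear normalized intensity on every array. Those deposited intensities show that background was subtracted, since 25.5% lie below 0, and arrays were normalized to each other, since the 75th percentile is 250.01 on each; software and method are not given in the sources used here. Per the labels' protocols, Trizol and RNeasy columns were used for extraction and the RNA was amplified to biotinylated cRNA. The 20 columns of a second deposited table, without normalization, match no label and were not used. The number of arrays limits the precision.

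Negative intensities were raised to 0 and log2(intensity + 16) was computed. A background SD of 6.45, from values below 0 mirrored about 0, gave the limit of 10.6, and 14985 probes above it on at least 5 of 10 arrays were tested with limma 3.58.1 in R 4.3.3 (two-sided, Benjamini-Hochberg over all tested probes, threshold 0.05). Adding 16 understates changes of dim genes. The labels were compared as 5 against 5 arrays. The runs were compared in a fit of 5 title groups (uninduced 1 to 3, uninduced 4 and 5, induced 1, induced 2 and 3, induced 4 and 5), within each label, as the mean of both, and as their difference. A gene is its tested probe with the highest mean, and 23978 probes carry 1 symbol in the platform annotation and 1719 none. The procedure was tested on simulated data, and plots were made with matplotlib 3.10.9 in Python 3.11.15.

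Members, lists and tests were chosen with earlier results of these data known. Genes named by rule were up to 12 with the largest rise and up to 12 with the largest fall among members called in the mean of both labels (1 was called, Derl3), the most intense member of each role, the 5 called members with the largest label difference, and up to 4 called genes of each list. Other named genes were singled out after their values were seen. Alternatives were the offset, the filter, renormalization, array weights, blocks and each array left out.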

Additional observations from a re-analysis of the deposited data

Results flagged for a closer look

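Of 78 groups of 5 arrays (39 named genes in each label), 4 held an array far from the other 4 by Dixon's ratio, and chance alone flags about 1 group in 20. In 3 of them the array was the one labelled induced 1. Tram2 read 28.9 there and 62.1 to 69.3 on induced 2 to 5. Pdgfra read 232 there and 9.88 to 45.8 on the others. Sox17 read 67.3 there and 11.99 to 16.6 on the others. Creld2 read 1502 on uninduced 5 and 1797 to 1903 on the other uninduced arrays.

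The run change of the endoderm factor Sox7, a marker read beside the secretory genes, differed between the labels by limma's interaction term (-1.15 ± 0.12, adjusted p = 0.0285). It was 0.90 on uninduced arrays and -0.26 on induced 2 to 5. No secretory gene was called in that test.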

How the results depend on the processing

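Of 965 single-gene values under the alternatives, 818 stayed on their side of the threshold. A change of sign was not counted where neither fit passed. Another 138 kept the direction but no longer passed, and 7 newly passed. Reversed were 2, both with the array set as a block (Copz2 at -0.13 and Tram2 at -0.12). Secretory calls between labels were 8. They were 3 without the filter on dim probes (2.27% of all genes called), 20 with array weights (48.2%), 0 with the array set as a block (0%), 10 with the run as a block (26.8%) and 6 with the title number as a replicate block (22.3%), with 0 to 18 when arrays were left out in turn (0.0793% to 44.9%). Run calls on uninduced arrays were 1, and 3 with an offset of 50, 2 without the filter, 2 with the filter requiring all 10 arrays, and 0 with the description number as a replicate block (0 to 2 with arrays left out), with 4.9% to 15.1% of all genes called. Run calls on induced 2 to 5 were 2, and 0 with array weights, 0 with the replicate block and 0 with induced 1 kept in run 1 (0 to 2), with 1.42% to 10.9% of all genes called. In the mean of both labels there was 1, and 3 with an offset of 50, 0 without the filter, 0 with the replicate block and 0 with induced 1 kept in run 1 (0 to 2), while 5.56% to 20.2% of all genes were called. The difference of the run changes gave 0 under each alternative run. Where a call changed, the cause was not tested. An alternative chosen after seeing the data, leaving out Coprs and the Sec14 and Sec22 genes (55 tested genes), kept each of the 5 counts. Title numbers do not pair the arrays: deviations from the label means correlated at 0.29 to 0.31 for numbers 2 to 5 and at -0.06 for number 1, and 2 of the 10 arrays correlated best with their own number. Dim genes carry the widest intervals, and Derl3 lies too close to background for a firm fold.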
